A study of Mus musculus with 18 samples.

Results

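The genes described here are the mouse zinc finger protein (Zfp) genes whose symbol is Zfp followed by a number only and that were measurably transcribed in refed liver. Members were selected on the RNA-seq counts themselves, requiring 200 or more estimated counts summed over the 2 libraries of wildtype (WT) liver. Of 15572 genes in the count table, 333 carried such a symbol and 228 met the count minimum. Just inside the minimum were Zfp420 with 205 counts, Zfp369 with 205.7 counts and Zfp85 with 205.8 counts, and just outside were Zfp128 with 198 counts, Zfp90 with 193 counts and Zfp791 with 193 counts.

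The study addressed how JMJD1C, a histone demethylase that removes methyl groups from lysine 9 of histone H3 (H3K9), acts on transcription in liver when mice eat after a fast. Livers of C57BL/6J mice kept on chow for 6 to 8 weeks were assayed after an overnight fast or after 6 h of refeeding a high carbohydrate diet. The treatment text of the labels gives the 6 h of refeeding for every sample, those with F in the title included, so fasted (F) and refed (R) in ATAC-seq and ChIP-seq follow the titles, and each fasted value below rests on them. RNA-seq compared 2 WT libraries with 2 libraries labelled JMJD1C-LKO, a liver knockout made from floxed Jmjd1c and Cre recombinase driven by the albumin promoter, each library from pooled RNA of several refed mice. ATAC-seq was made from 2 livers in each of 3 groups, namely fasted WT mice, refed WT mice and refed JMJD1C-LKO mice (knockout livers below), and ChIP-seq of dimethylated H3K9 (H3K9me2) from 2 livers each of WT fasted and WT refed mice. No H3K9me2 ChIP-seq of the knockout was analysed here, and all livers were from the C57BL/6J strain.

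Zinc finger proteins of the C2H2 type fold short repeats around a zinc ion, and a row of such fingers reads a stretch of DNA. Many of them also carry a KRAB box, which recruits the corepressor TRIM28 and with it the H3K9 methyltransferase SETDB1, silencing transposable elements and other targets. KRAB zinc finger genes lie in tandem arrays made by gene duplication, and their own arrays are known for methylated H3K9. Of the methylated forms only H3K9me2 was assayed here, so other forms over these arrays were not read. Other proteins that share the Zfp name bind RNA, carry ubiquitin ligase activity or act as general promoter factors.

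The RefSeq proteins of the members held a median of 10 C2H2 fingers, from 0 to 36. A KRAB A box pattern was found in 108 members and not in the other 120, with medians of 12 and 8 fingers. The TGEKP linker that joins neighbouring fingers occurred in 163 members. In Zfp36, Zfp330, Zfp503, Zfp703, Zfp750 and Zfp839 no match to the C2H2 finger pattern was found. The pattern has fixed spacing, so a finger of other spacing would be missed. Sequence shared with other genes limits the counting of some members. In 127 members no 50-base window of the main transcript occurred in a transcript of another gene, while in 17 members 20% or more of the windows did, up to 100% in Zfp966 and Zfp967, and values of these 17 are uncertain.

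Expression of the members in WT liver was low. The mean length-scaled level (TPM) had a median of 3.30 TPM over the members, against 11.5 TPM over 10777 genes with the same count minimum. The highest level was that of Zfp36, an RNA-binding protein that promotes decay of messages with AU-rich elements, at 79.9 and 78.5 TPM in the WT libraries. Zfp91, a ubiquitin ligase, followed at 58.6 and 57.6 TPM, of which 41.8% of the transcript windows are shared with another gene. Zfp207, a spindle assembly factor that binds BUB3, stood at 52.4 and 51.9 TPM. Zfp598, the ubiquitin ligase that marks collided ribosomes, stood at 39.2 and 40.5 TPM, and Zfp706 at 31.5 and 34.2 TPM. In this order of the 5 highest genes no neighbours overlapped in their WT libraries, and the lowest mean of a member was 0.374 TPM for Zfp966 and Zfp967.

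The targeted gene was examined first. Jmjd1c stood at 22.0 and 22.8 CPM (counts scaled to the TMM-adjusted library size) in the WT libraries and at 20.04 and 20.5 CPM in the libraries labelled JMJD1C-LKO, a log2 fold change of -0.14 ± 0.08 (SE, n = 2 libraries per group, edgeR adjusted p = 0.233). The knockout libraries were therefore not called lower for the gene their label names, and the counts cover whole transcripts, so the deleted part was not measured on its own. Totals were 51265128 to 54400509 counts per library. Summed levels of 5 hepatocyte markers were 111900 to 114300 CPM in WT libraries and 100100 and 112300 CPM in the labelled JMJD1C-LKO libraries. All 6 Kupffer cell markers were called higher (summed 194 and 198 CPM in WT, 380 and 546 CPM in labelled JMJD1C-LKO), as were 4 of 5 endothelial markers (82.8 and 85.0 against 113 and 148 CPM). In bulk RNA, more cells of a type and more RNA per cell cannot be told apart, and the part of these markers in the results below was not tested.

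More Zfp members were lower than higher in the libraries labelled JMJD1C-LKO. All 228 members were tested, and by the edgeR quasi-likelihood test with Benjamini-Hochberg adjustment over all genes 37 were called lower (16.2%) and 7 higher (3.07%), where the background over all 14151 genes tested was 13.4% lower and 14.6% higher. Over the 10808 genes tested with the same count minimum it was 17.1% lower and 14.4% higher. The share of members called lower was thus near the background, while the share called higher was below it. All 7 members called higher were among the 86 with 1000 or more WT counts, where 12.7% of all genes were called higher. The log2 fold change was below 0 in 159 members (69.7%), compared with 49.4% of all genes tested and 54.7% of genes with the same count minimum. The median log2 fold change was -0.17 over the members and 0.01 over all genes tested, with an SD over members of 0.32. Only 2 members changed by 2-fold or more.

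Spread between libraries was of a size with these changes. The absolute log2 difference between libraries of one group had a median over members of 0.10 in WT and 0.14 in labelled JMJD1C-LKO, and the standard error of the log2 fold change a median of 0.14. In 116 members (50.9%) both labelled JMJD1C-LKO libraries lay below both WT libraries, and in 41 above, against a background of 33.8% and 33.7% of all genes tested. The number of calls rested on having both WT libraries. Without WT replicate 1 the calls fell to 4 lower (Zfp292, Zfp609, Zfp692 and Zfp97) and 2 higher (Zfp281 and Zfp444), and those of all genes tested to 3.28% lower and 5.44% higher. Without WT replicate 2 they fell to 4 lower (Zfp292, Zfp609, Zfp750 and Zfp97) and 0 higher in edgeR, with 8 members higher at an unadjusted p under 0.05, and all genes to 2.81% and 4.55%. Without JMJD1C-LKO replicate 1 there were 50 members lower (21.9%) and 14 higher (6.14%), where 17.9% of all genes were called in each direction. Without JMJD1C-LKO replicate 2 there were 31 lower and 7 higher, against 10.3% and 11.2% of all genes. With 1 library left in a group the spread comes from the pair of the other group alone, and the lone library is assumed to vary like it. In all 44 called members the groups do not overlap, so leaving out a library cannot turn their direction. The median of the members was between -0.18 and -0.14 in these fits. The WT counts that chose the members also enter the fold change. Choosing members by 200 or more counts in the labelled JMJD1C-LKO libraries instead gave a median of -0.14 over 221 genes with 34 lower and 7 higher, where all genes chosen in that way had a median of -0.02 with 16.2% lower and 16.3% higher.

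**Figure D1:**
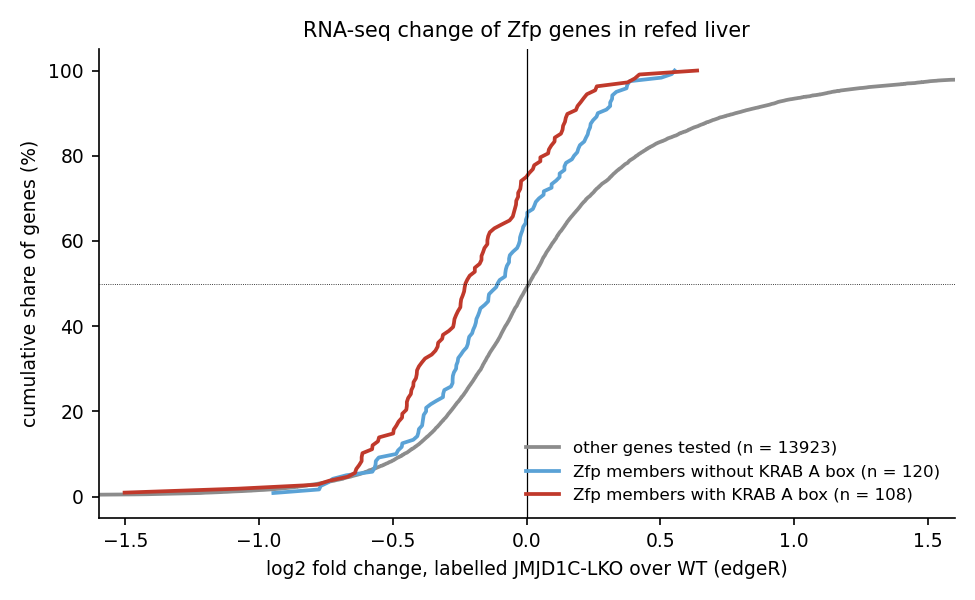
Cumulative share of genes (%, vertical) by log2 fold change of the libraries labelled JMJD1C-LKO over WT (horizontal, edgeR) for 108 Zfp members with a KRAB A box, 120 without and 13923 other genes tested. The curve of KRAB members crosses 50% at -0.23 and that of the other members at -0.10.

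Members were also set beside other genes of a like level. With the genes divided into 4 equal bins of WT level, the lowest bin (up to 4.30 TPM) held 139 members, with a median log2 fold change of -0.19 for members and 0.07 for 2556 other genes. In the second bin the medians were -0.11 for 60 members and -0.03 for 2634 other genes, and in the third -0.08 for 25 members and -0.08 for 2669 other genes. The highest bin held 4 members, with a median of -0.29 against -0.06 for 2690 other genes. The medians of members and other genes were thus close in the third bin, and that of members was the lower in the other bins, with no test of a difference. Over 4 equal bins of transcript length, the member medians were -0.15, -0.18 and -0.15 in the 3 upper bins and 0.14 in the lowest, which held 9 members, while the other genes lay between -0.05 and -0.02.

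Among members called lower, the smallest p was that of Zfp292, a large C2H2 transcription factor with 14 fingers on chr4:34803110-34882948. It stood at 31.1 and 31.7 CPM in WT and 18.9 and 18.6 CPM in labelled JMJD1C-LKO libraries. The groups were well apart, with a log2 fold change of -0.74 ± 0.08 (SE, n = 2, edgeR adjusted p = 0.000339). Zfp609, which has a single finger and interacts with the cohesin loader NIPBL, stood at 34.5 and 32.2 CPM in WT and 23.5 and 21.6 CPM in labelled JMJD1C-LKO (log2 fold change -0.56 ± 0.09, adjusted p = 0.00183). Zfp692, known as a repressor at a gluconeogenic promoter that responds to AMP kinase activation, stood at 11.9 CPM in each WT library and 6.64 and 7.77 CPM in labelled JMJD1C-LKO (-0.72 ± 0.13, adjusted p = 0.00312). Zfp750, best known for epidermal differentiation, went from 20.2 and 18.6 CPM to 13.9 and 12.3 CPM (-0.56 ± 0.10, adjusted p = 0.00405). In each of these 4 genes both labelled JMJD1C-LKO libraries lay below both WT libraries.

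Zfp598 fell from 77.3 and 78.2 CPM in WT to 56.4 and 61.3 CPM in labelled JMJD1C-LKO libraries (log2 fold change -0.40 ± 0.08, edgeR adjusted p = 0.00574). It is among the most abundant members, so its standard error is one of the small ones. Zfp507 measured 18.5 and 17.9 against 13.4 and 13.0 CPM (-0.47 ± 0.09), and Zfp639 15.99 and 16.5 against 11.9 and 11.3 CPM (-0.49 ± 0.10). Zfp143, an activator bound at promoters of small nuclear RNA and many protein-coding genes, measured 7.87 and 8.63 CPM in WT and 5.44 and 4.25 CPM in labelled JMJD1C-LKO (-0.77 ± 0.16, adjusted p = 0.00765). Of the KRAB members, Zfp943 on chromosome 17 measured 6.69 and 6.54 against 4.01 and 3.92 CPM (-0.74 ± 0.15). Zfp97, also on chromosome 17, had the lowest log2 fold change of all members at -1.50 ± 0.24, from 3.74 and 5.81 CPM to 1.68 and 1.69 CPM. Its WT libraries also lie apart from each other, and 83.7% of its transcript windows occur in another gene, so its value is uncertain.

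**Figure D2:**
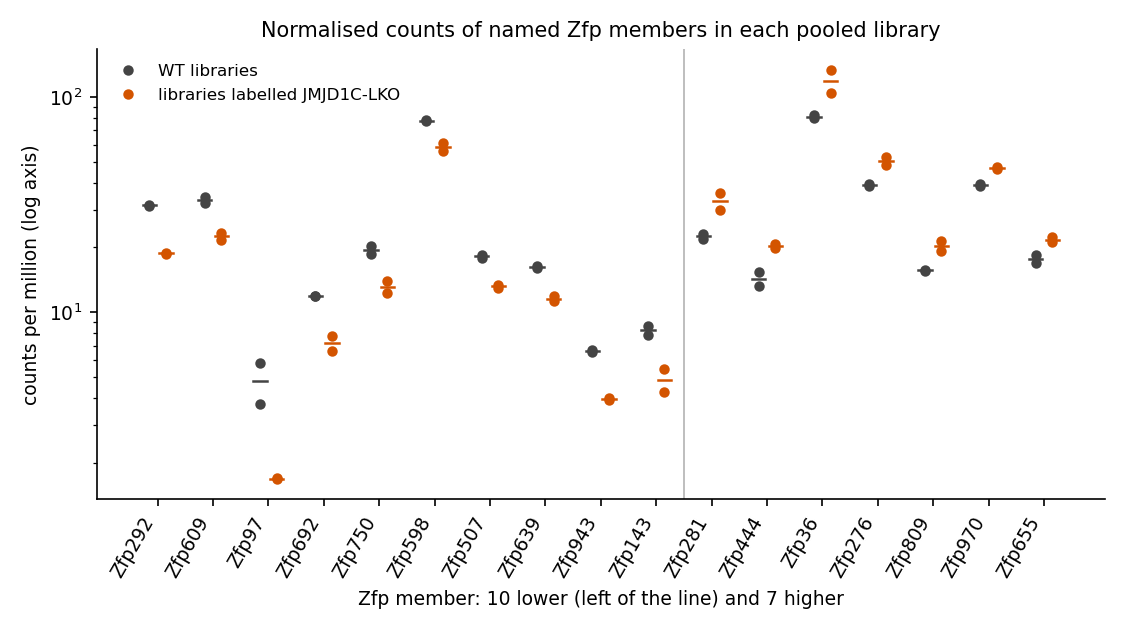
CPM (log axis, TMM scaled) of the 10 members with the smallest p among those called lower and the 7 called higher, in the 2 WT libraries and the 2 libraries labelled JMJD1C-LKO (points, with bars at the group mean). The points of the groups do not overlap in any of these genes.

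The 7 members called higher held several proteins outside the KRAB class. Zfp36 measured 82.9 and 79.7 CPM in WT and 104 and 134 CPM in labelled JMJD1C-LKO (log2 fold change 0.55 ± 0.11, edgeR adjusted p = 0.00671). Zfp281, a GC-rich DNA binding factor known from embryonic stem cells, measured 23.2 and 21.9 against 30.0 and 35.8 CPM (0.54 ± 0.10, adjusted p = 0.00442). For Zfp444 the values were 15.4 and 13.3 against 19.9 and 20.7 CPM (0.50 ± 0.10). In all 3 the labelled JMJD1C-LKO libraries lay above both WT libraries, and the labelled JMJD1C-LKO libraries of Zfp36 and Zfp281 also differed from each other. Zfp276 measured 38.8 and 39.5 against 48.5 and 53.0 CPM (0.38 ± 0.08), and Zfp655 16.9 and 18.5 against 22.4 and 21.1 CPM (0.30 ± 0.09). Zfp809, the KRAB protein that silences retroviruses through their primer binding site, measured 15.7 and 15.5 against 21.4 and 19.3 CPM (0.38 ± 0.09). Zfp970 measured 38.5 and 39.6 against 47.1 and 46.5 CPM (0.26 ± 0.08), with 48.5% of its windows shared. Zfp655 and Zfp970 were not called by DESeq2. The largest positive value was that of Zfp169 at 0.64 ± 0.21, which was not called (adjusted p = 0.05001, just above the threshold).

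Members with a KRAB A box had a median log2 fold change of -0.23, and 18 of 108 were called lower and 2 higher (Zfp809 and Zfp970). Members without the box had a median of -0.10, and 19 of 120 were called lower and 5 higher. The shares called lower, 16.7% and 15.8%, lay close to each other and to the 13.4% of all genes, so the KRAB class differs in its median more than in its calls, a difference that was not tested. By number of fingers, the median was -0.09 for 38 members with 0 to 4 fingers, -0.12 for 64 with 5 to 9, -0.22 for 75 with 10 to 14 and -0.21 for 51 with 15 or more. Of the lowest values among KRAB members, Zfp40 on chromosome 17 had -1.08 ± 0.25 (edgeR adjusted p = 0.0109).

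Calls in small lists of genes grouped by function went both ways, beside 13.4% lower and 14.6% higher of all genes tested. Lists of this size cannot be told from that share, and none was tested. Of 5 RNA-binding members, Zfp36 was called higher and Zfp638, which binds cytidine-rich sequences in adipocyte differentiation, lower. Zfp638 measured 25.3 and 24.4 against 20.7 and 20.8 CPM (-0.26 ± 0.08, edgeR adjusted p = 0.0440). It was not called by DESeq2 or with a replicate block. Zfp106 (-0.14), Zfp326 (-0.14) and Zfp346 (-0.02) were not called in the main test. Of 12 listed chromatin and imprinting genes, Zfp143 was called lower and Zfp281 and Zfp809 higher, with a list median of 0.06. Not called in that list were Zfp445, an imprint-protecting KRAB protein that is among the most abundant (87.9 and 82.2 against 99.0 and 89.1 CPM, 0.15 ± 0.09), Zfp568 (-0.002), Zfp592 (-0.03), Zfp644 (-0.08), Zfp687 (-0.28), Zfp217 (-0.004) and Zfp410 (0.12), the factor that controls the repressor subunit gene Chd4, and Zfp57 and Zfp462, which lie under the count minimum. Of the 5 adipocyte and metabolic genes 0 were called by edgeR (1 lower and 1 higher at an unadjusted p under 0.05), with values of -0.31 in Zfp407, -0.14 in Zfp467 and -0.39 in Zfp516. The other genes of that list, Zfp423 (1.45 from 14 WT counts) and Zfp521 (-0.22 from 29 WT counts), lie under the count minimum. Of the ubiquitin, SUMO and spindle list, Zfp91 (193 and 186 against 152 and 153 CPM, -0.31 ± 0.08, adjusted p = 0.0149) and Zfp207 (75.7 and 72.9 against 64.4 and 59.4 CPM, -0.26 ± 0.08, adjusted p = 0.0353) were called lower, and Zfp451 (-0.003) was not.

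The partners through which KRAB proteins silence were called lower about as often as all genes. Of 24 corepressor and H3K9 silencing genes tested, 4 were called lower (16.7%), namely Atrx, Morc2a, Pphln1 and Wiz, and Uhrf1 higher (4.17%) from 1.402 WT counts in all, against the 13.4% and 14.6% of all genes. At an unadjusted edgeR p under 0.05, 10 were lower and 2 higher, against 2756 and 2894 of all 14151 genes tested. This difference was not tested. Trim28, the common corepressor, measured 60.1 and 64.7 CPM in WT and 52.1 and 56.9 CPM in labelled JMJD1C-LKO (-0.20 ± 0.08, edgeR adjusted p = 0.110), and Setdb1 32.7 and 31.1 against 25.6 and 27.9 CPM (-0.25 ± 0.09, adjusted p = 0.0533). Wiz, the zinc finger partner of the H3K9 methyltransferases EHMT1 and EHMT2, measured 26.9 and 23.2 against 17.2 and 16.6 CPM (-0.57 ± 0.10, adjusted p = 0.00309). Ehmt2 itself measured 64.6 and 62.7 against 68.2 and 78.2 CPM (0.20 ± 0.09, adjusted p = 0.115).

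Families with a like finger had medians from -0.33 to 0.57. Of all genes tested, 13.4% were called lower and 14.6% higher. Of the 28 tested genes whose symbol is Zfp with a number and letters, 7 were lower (25%) and Zfp36l2 higher (3.57%). Their median was -0.33. The 41 Zbtb genes had a median of 0.02, with 6 lower (14.6%) and 4 higher (9.76%). The 17 Zkscan and Zscan genes had a median of 0.06, with 2 lower (11.8%) and 1 higher (5.88%). Of 13 Klf genes, 9 were called higher (69.2%) and Klf10 lower (7.69%), with a median of 0.57. Differences between the families, or from all genes tested, were not tested.

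The members were spread over 20 chromosomes and were unevenly placed. Chromosome 7 held 55 members (24.1%), where 7.72% of all tested genes lie, and chromosome 17 held 29 (12.7%, against 5.11%). Chromosome 13 held 18, chromosome 8 held 17 and chromosome 2 held 15. On chromosome 17, 8 members were called lower and 0 higher, with 0 higher at an unadjusted p under 0.05 too, a median of -0.27 and 24 of 29 members below 0, while the other tested genes of that chromosome had a median of 0.03 with 11.4% lower and 17.9% higher. On chromosome 11, 5 of 11 members were called lower and 0 higher, with a median of -0.38 against 0.02 for the other genes, of which 12.8% were called lower and 14.8% higher. On chromosome 7 the members had a median of -0.05, with 7 lower, 2 higher and 31 of 55 below 0, and of the other genes there 11.7% were called lower and 15.6% higher. Chromosomes 12 and 1 had positive medians of 0.22 over 4 members and 0.25 over 3.

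**Figure D3:**
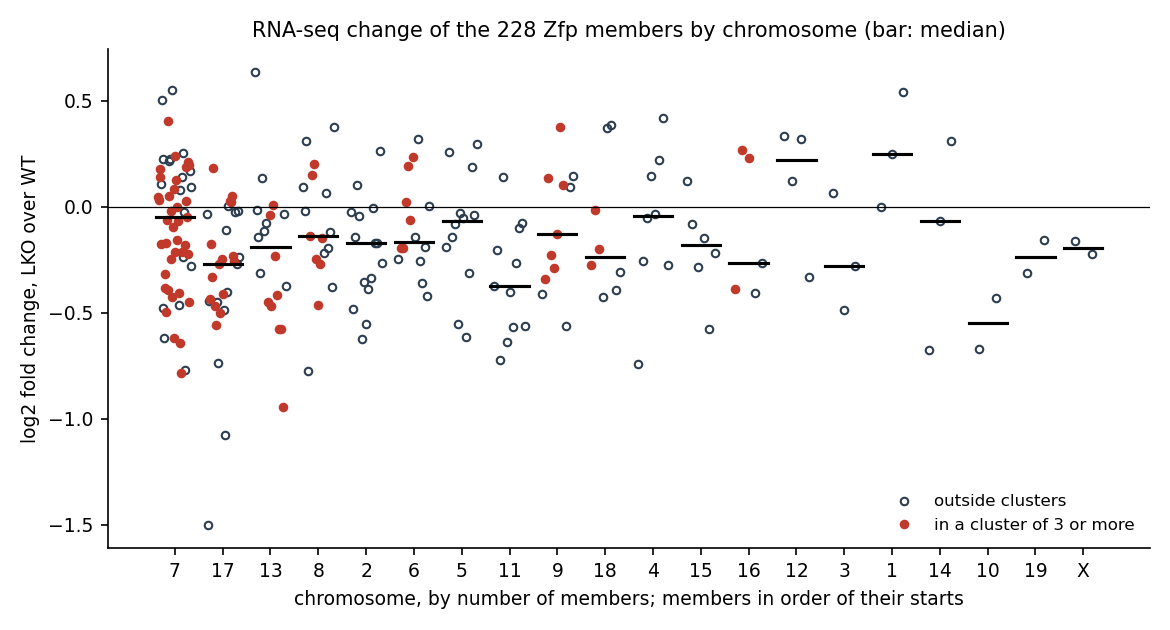
Log2 fold change of the 228 members (vertical, libraries labelled JMJD1C-LKO over WT) by chromosome, ordered by number of members, with bars at the median. Filled points are members in a cluster of 3 or more. Chromosome 17 lies mostly below 0, with a median of -0.27, and chromosome 7 is centred near 0 at -0.05.

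Clusters were defined as 3 or more members with neighbouring starts at most 200000 bp apart. There were 18 clusters on 8 chromosomes, with 87 members (38.2%), 58 of which carry a KRAB A box. Inside clusters 8 of the 87 members were called lower (9.20%) and 1 higher (1.15%), and of the 141 outside 29 lower (20.6%) and 6 higher (4.26%), beside the 13.4% and 14.6% of all genes. The medians were -0.18 inside and -0.15 outside, and no difference between them was tested. The SD of the log2 fold change was 0.24 within clusters, pooled over the 87 members there, and 0.19 between the cluster means. Over all members it was 0.32, but that set includes those outside clusters, so the values are not a like comparison. In 13 clusters the median was below 0, and in 6 every member was.

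Of the clusters, 2 held 2 called members each. That on chr13:67312998-67827000 had 9 members, 8 of them below 0. Its median was -0.45, from -0.95 in Zfp273 to 0.01 in Zfp87, and 9 other tested genes there had a median of -0.26. Zfp273 measured 2.30 and 2.51 against 1.32 and 1.18 CPM (edgeR adjusted p = 0.0162), with 25.1% of its windows shared. The cluster of Zfp141, Zfp976 and Zfp975 on chr7:42473386-42692718 had the lowest median of any cluster, -0.64, from -0.78 in Zfp976 (4.36 and 4.03 against 2.77 and 2.11 CPM, adjusted p = 0.0187) to -0.21 in Zfp975. Zfp141 was called lower as well at -0.64, while Zfp976 and Zfp975 share 21.1% and 38.3% of their windows.

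On chromosome 17 the clusters went different ways. At chr17:21450374-21748969, 6 KRAB members had a median of -0.38, from -0.56 in Zfp229 to 0.18 in Zfp983, with 0 called. At chr17:22197265-22456689, 4 KRAB members had a median of -0.34, from -0.50 in Zfp944 (6.60 and 7.02 against 5.10 and 4.54 CPM, called lower) to -0.25 in Zfp758. At chr17:32765496-33110705 the 5 members lay around 0, from -0.26 in Zfp563 to 0.05 in Zfp870. Chromosome 7 held 7 clusters. The largest, with 10 members at chr7:29768552-30169741, had a median of -0.08, from -0.62 in Zfp30 to 0.24 in Zfp420, with Zfp146 called lower. The 8 members at chr7:127233061-127614433 had a median of -0.01, from -0.45 in Zfp689 to 0.21 in Zfp688. The 5 at chr7:4915217-5038446, none with a KRAB A box, ran from -0.18 in Zfp784 to 0.18 in Zfp865. In the cluster at chr7:12803778-12985716 all 4 members lay below 0, from -0.50 in Zfp324 to -0.17 in Zfp446, with Zfp110 called lower.

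The remaining clusters were small, and their calls were Zfp263 lower and Zfp809 higher. At chr16:3744099-3872374 values ran from -0.39 in Zfp263 (19.8 and 19.0 against 15.1 and 14.6 CPM) to 0.27 in Zfp174, next to each other on the chromosome. At chr9:22055411-22307638 they ran from -0.13 in Zfp653 to 0.38 in Zfp809, and at chr9:20428318-20595193 from -0.34 in Zfp26 to 0.14 in Zfp426. At chr7:24081897-24277794 they ran from -0.39 in Zfp111 to 0.40 in Zfp235, and at chr7:27731409-27856774 from -0.42 in Zfp59 to -0.02 in Zfp626. Neither of these last clusters held a called member. On chromosome 8, values were -0.24 in Zfp866 to 0.20 in Zfp963 at chr8:69610654-69774911 and -0.46 in Zfp709 to -0.15 in Zfp961 at chr8:71882068-71970333. The cluster at chr6:47835661-48086593 ran from -0.19 in Zfp282 to 0.24 in Zfp746, and that at chr18:23954688-24020813 from -0.28 in Zfp397 to -0.01 in Zfp35. On chromosome 10, where Jmjd1c lies, the members were Zfp433 and Zfp873, both more than 10 Mb from it.

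Chromatin at the starts of the members was read from the peak summits of single livers. A gene was counted when a summit lay within 1000 bp of any of its RefSeq starts, and a group of livers when both did. The lists differ in length, from 825 to 7632 summits in ATAC-seq and from 1297 to 13456 in H3K9me2 ChIP-seq, so counts between livers reflect the lists as well as the genes. The first WT refed H3K9me2 liver stands apart with 1297 summits against 7690, 13456 and 9929 in the others. Each count is therefore set beside the share of all genes with 200 or more WT counts.

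Summits of open chromatin were found at the starts of 89 members in at least 1 of the 6 ATAC-seq livers, and at none of them for 139. Per liver, fasted WT gave 68 (29.8%) and 24 (10.5%) members with a summit, refed WT 54 (23.7%) and 33 (14.5%), and the refed knockout 23 (10.1%) and 6 (2.63%). Other genes with the same count minimum had 23.7% and 10.7%, 19.4% and 12.3%, and 7.81% and 1.58%. A summit in each of the 2 livers was found for 20 members (8.77%) in fasted WT, 24 (10.5%) in refed WT and 3 (1.32%) in the refed knockout, with a background of 8.42%, 9.43% and 0.658% of 10796 genes. The members were near the background in both WT groups, and the other genes also had fewer summits in refed knockout than in WT refed livers. Of the 3 members in refed knockout, 1 remained without the 17 members that share sequence. In fasted WT 14 (6.64%) and in refed WT 17 (8.06%) then remained, below the 8.41% and 9.41% of other genes. With the strongest 825 summits of each liver, 13 (5.70%) and 5 (2.19%) members had one in WT fasted, 8 (3.51%) and 8 (3.51%) in WT refed and 7 (3.07%) and 6 (2.63%) in refed knockout livers. Other genes then had 3.94% and 3.23%, 4.25% and 4.39%, and 3.79% and 1.58%.

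The members were also compared between states of feeding. A summit in both livers was found in WT fasted and WT refed for 13 members (5.70%), in WT fasted but not in both WT refed livers for 7 (3.07%; Zfp263, Zfp266, Zfp407, Zfp444, Zfp85, Zfp954 and Zfp971) and in WT refed but not in both WT fasted livers for 11 (4.82%), among them Zfp131, Zfp141, Zfp335, Zfp687 and Zfp970. The background over the 10796 genes was 5.22%, 3.20% and 4.21%, close to the members in each case. In both JMJD1C-LKO livers the members were Zfp433, Zfp687 and Zfp959, and 2 of these 3 also had one in both WT refed livers. Of the 24 members with a summit in both WT refed livers, 9 were called lower by RNA-seq (37.5%, median log2 fold change -0.27), and of the 204 others 28 (13.7%, median -0.14). Among other genes with the count minimum, 16.8% of the 994 with such a summit were called lower (median -0.07) and 17.1% of the 9574 without (median -0.03). The shares were alike for fasted summits. Of the 20 members with a summit in both WT fasted livers 7 were called lower (35.0%, median -0.26), and of the 208 others 30 (14.4%, median -0.15). Zfp91, Zfp97 and Zfp433, counted in both states, share 41.8%, 83.7% and 94.2% of their windows with other genes. No difference between any of these shares was tested. Among all 228, 34 (14.9%) have the start of another gene on the opposite strand within 1000 bp, against 21.5% of the other genes, and there a summit cannot be assigned to 1 of them. Zfp758 and Zfp944 are such a pair, with their starts facing apart on chromosome 17, and the summits counted for both are the same.

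Sequences of the promoters with a summit in most ATAC-seq livers are shown with motif matches marked. They are RefSeq promoters of build GRCm38.p6, the same coordinates as mm10, 250 bases before to 50 bases after a start, 5′ to 3′ on the strand of the gene. Capitals mark matches on either strand to the motifs searched, which were CACGTG (E-box, bound by USF-1), TGCGCA (NRF1), AAGATGGC (YY1), CCGGAAG (ETS factors), TGACGTCA (CRE), GGGCGG (SP and KLF factors), ACTACAA (ZFP143) and CCAAT (NF-Y). The promoters are those of Zfp433 (chr10:81704575-81704874, plus strand), Zfp687 (chr3:95015408-95015707, minus strand), Zfp143 (chr7:110061452-110061751, plus strand), Zfp944 (chr17:22361351-22361650, minus strand, which it shares with Zfp758 in the other direction) and Zfp317 (chr9:19621841-19622140, plus strand).
Zfp433 promoter: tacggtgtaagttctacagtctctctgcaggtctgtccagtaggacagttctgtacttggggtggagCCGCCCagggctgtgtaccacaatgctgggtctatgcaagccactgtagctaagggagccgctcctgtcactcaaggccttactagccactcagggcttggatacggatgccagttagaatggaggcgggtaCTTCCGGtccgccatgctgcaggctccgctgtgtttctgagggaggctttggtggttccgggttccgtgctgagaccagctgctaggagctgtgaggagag
Zfp687 promoter: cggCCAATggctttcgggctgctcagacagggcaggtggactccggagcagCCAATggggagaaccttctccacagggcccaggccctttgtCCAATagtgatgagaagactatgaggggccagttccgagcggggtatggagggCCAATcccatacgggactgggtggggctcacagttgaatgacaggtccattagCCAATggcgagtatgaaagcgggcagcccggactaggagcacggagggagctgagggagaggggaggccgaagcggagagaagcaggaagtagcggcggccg
Zfp143 promoter: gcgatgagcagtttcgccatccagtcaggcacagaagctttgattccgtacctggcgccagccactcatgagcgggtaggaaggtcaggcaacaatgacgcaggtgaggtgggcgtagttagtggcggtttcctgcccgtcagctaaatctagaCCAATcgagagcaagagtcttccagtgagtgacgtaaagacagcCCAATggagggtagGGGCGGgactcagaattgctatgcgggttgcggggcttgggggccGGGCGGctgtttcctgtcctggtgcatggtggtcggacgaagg
Zfp944 promoter: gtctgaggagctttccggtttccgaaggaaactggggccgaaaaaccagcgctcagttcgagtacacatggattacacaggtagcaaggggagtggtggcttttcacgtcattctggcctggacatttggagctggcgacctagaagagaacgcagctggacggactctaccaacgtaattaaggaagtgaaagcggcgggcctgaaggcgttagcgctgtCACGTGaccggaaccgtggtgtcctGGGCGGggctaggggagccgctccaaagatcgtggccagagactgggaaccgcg
Zfp317 promoter: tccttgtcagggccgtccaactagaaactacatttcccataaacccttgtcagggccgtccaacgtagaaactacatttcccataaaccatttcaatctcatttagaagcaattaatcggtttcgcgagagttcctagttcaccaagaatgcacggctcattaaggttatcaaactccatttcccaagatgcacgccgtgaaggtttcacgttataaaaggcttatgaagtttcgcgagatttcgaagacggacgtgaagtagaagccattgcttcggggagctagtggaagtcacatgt
A summit more than 50 bp into the gene lies beyond the printed bases. Zfp433 had a summit in all 6 livers, at 75 to 112 bp into the gene in 5 of them and at 9 bp in the first JMJD1C-LKO liver, and 94.2% of its transcript windows occur in another gene. Zfp143 had summits in 5 livers, at -63 and -67 bp (upstream of the start) in WT fasted, at -176 and -148 bp in WT refed and at -131 bp in the first JMJD1C-LKO liver. Its promoter holds 2 CCAAT and 2 GGGCGG matches. In Zfp687, 5 CCAAT matches stand in the window, and in Zfp944 the E-box lies shortly before the start and a GGGCGG across it. Summits of Zfp944 lay at 91 to 126 bp in WT livers, off the printed bases, and at -122 bp in the first JMJD1C-LKO liver. Those of Zfp687 lay between -605 and 155 bp, and those of Zfp317 between -147 and 90 bp. Zfp317 holds none of these letters, which says nothing of factors bound there.

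Of the 228 members, 189 had a promoter in the list of promoter sequences searched, with 230 promoters in all. The shares below leave out the other members. CCGGAAG was found in 21.3% of the 230, against 8.86% of all 32851 promoters and 18.2% of those of genes with the same count minimum. CCAAT was found in 48.7%, against 37.4% and 37.7%, and in 57.9% of the promoters of KRAB members. GGGCGG was found in 47.0% of member promoters, 35.7% of all and 61.9% of those with the count minimum. CACGTG, the site type through which USF-1 acts, was found in 6.52%, against 7.15% and 10.2%. Shares for the others were 10.9% against 7.76% and 13.7% for TGCGCA, 6.09% against 2.75% and 4.65% for AAGATGGC, 3.48% against 1.79% and 3.05% for TGACGTCA, and 6.52% against 3.24% and 4.41% for ACTACAA. Beside genes with the count minimum, the share of members was higher for the NF-Y, ETS, ZFP143, YY1 and CRE motifs and lower for the SP and KLF, E-box and NRF1 motifs, and no difference was tested. The median G and C content was 56.0% in member promoters and 60.7% in promoters of genes with the count minimum.

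**Figure D4:**
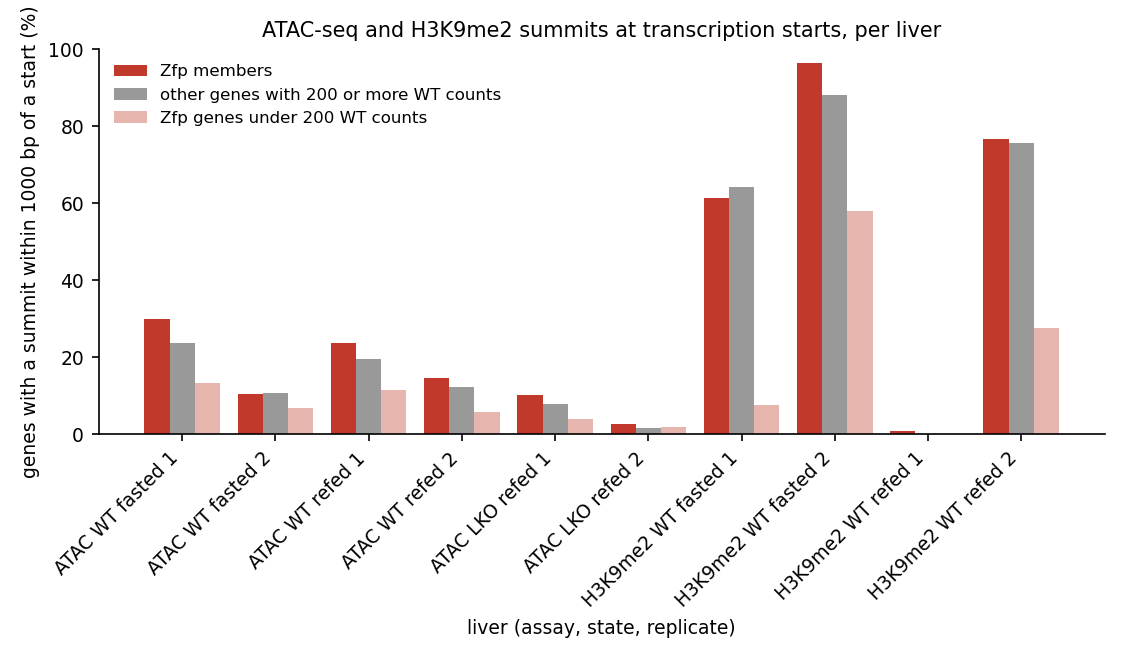
Share of genes (%, bars from 0) with a summit within 1000 bp of a start in each ATAC-seq and H3K9me2 ChIP-seq liver, for 228 Zfp members, 10568 other genes with 200 or more WT counts and 105 Zfp genes under 200 WT counts. Members and other genes are close in most livers, and the first WT refed H3K9me2 liver is near 0 for all.

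Dimethylated H3K9 summits stood at the starts of most members. In WT fasted livers 140 (61.4%) and 220 (96.5%) members had one, and in WT refed livers 2 (0.877%) and 175 (76.8%). Other genes with the same count minimum had 64.2% and 88.0%, 0.123% and 75.8%. In both livers there were 140 members in WT fasted (61.4%, background 63.8%) and 2 in WT refed (0.877%, background 0.0834%), the latter set by the short list of the first liver. The shares were thus close to those of other genes, apart from the second WT fasted liver, where the share of members was the higher, a difference that was not tested. The members without an H3K9me2 summit in any liver were Zfp235, Zfp28, Zfp503, Zfp532, Zfp626 and Zfp652, and only Zfp236 had one in all 4.

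The summits of the members were weaker than those of other genes in the 3 longer lists. In the second WT fasted liver the median score (−log10 q) was 36.5 over 220 members and 43.1 over 9305 other genes, in the first 10 and 13.1, and in the second WT refed liver 13.8 and 17.2. Among the strongest 1297 summits of each liver, members with one at a start made up 11.4% and 7.46% in WT fasted and 8.77% in the second WT refed liver, against 12.8%, 13.0% and 13.0% of other genes. So a larger share had a summit in the longest list and a smaller share in the strongest part of it, with no test of either. KRAB members had a summit in both WT fasted livers in 48.1% of cases (52 of 108) and the others in 73.3% (88 of 120), and in at least 1 of these livers in 97.2% and 95.8%.

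Named members with the mark in most livers included abundant ones. Zfp36 had a summit 287 and 265 bp into the gene in WT fasted and 283 bp in the second WT refed liver, with scores of 25.8, 93.3 and 40.4. For Zfp106 the distances were 250, 233 and 246 bp, and for Zfp445 417, 472 and 501 bp. In these 3 genes the distances lay close together over the livers. Zfp236, on chromosome 18, had summits at 684 and 628 bp in WT fasted, at -790 bp (upstream of the start) in the first WT refed liver and at -168 bp in the second. In Zfp207 the summit lay at -292 bp in the first fasted liver and at 310 and 316 bp in the others, and in Zfp91 it lay at -482, -551 and -526 bp, next to the start of Lpxn on the other strand. For Zfp598 it lay at 353 and 324 bp in WT fasted and at -275 bp in the second WT refed liver, and for Zfp706 at 373, 337 and -346 bp.

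Summits of the assays took different places around the start. H3K9me2 summits lay into the gene, at a median of 207 and 194 bp in WT fasted and 226 bp in the second WT refed liver, and 20 of 140, 23 of 220 and 27 of 175 lay before the start. ATAC-seq summits lay around the start, at a median of 20 and -15 bp in WT fasted and -99.5 and 1 bp in WT refed livers, with 33 of 68, 12 of 24, 31 of 54 and 16 of 33 before it. Other genes had ATAC-seq medians between -86.5 and -124 bp in these livers. Beyond 1000 bp from a start the genes held few summits: over 5415169 bp of member transcripts, 6 of 135 and 17 of 216 H3K9me2 summits in WT fasted livers and 11 of 173 in the second WT refed liver. In the last exons of the main transcripts, which sum to 701440 bp, there were 0, 2 and 0 such H3K9me2 summits. The peak lists are of narrow summits, so a broad domain of the mark over gene clusters would not be read from them.

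**Figure D5:**
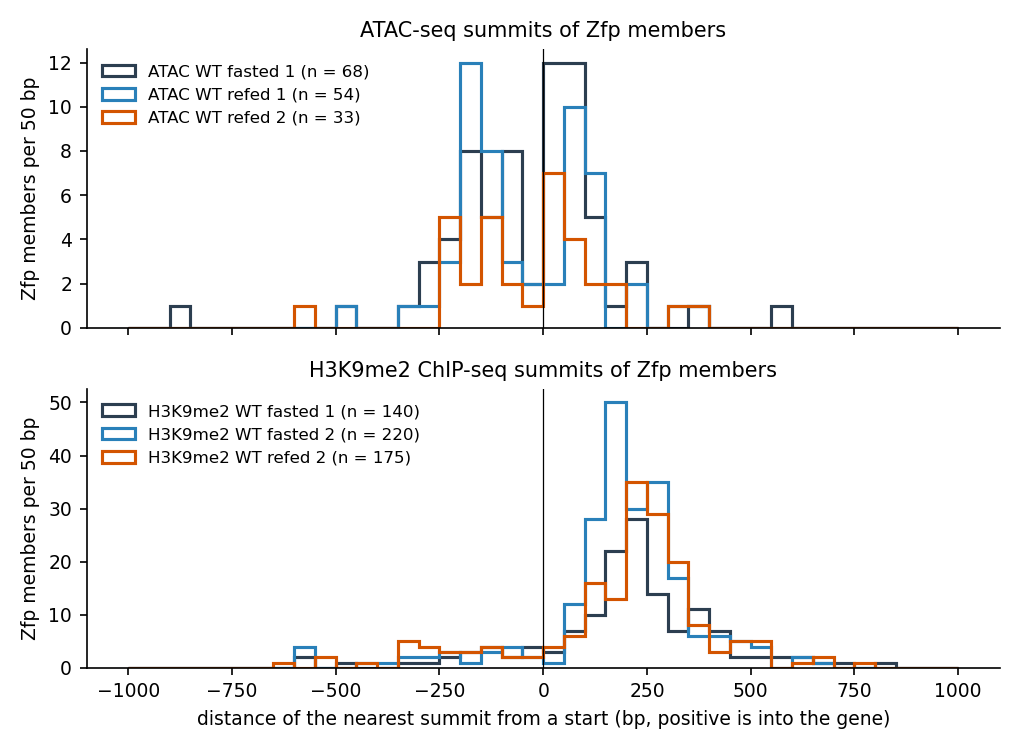
Number of Zfp members per 50 bp (vertical) by distance of the nearest summit from a start (bp, horizontal, positive into the gene), for ATAC-seq above and H3K9me2 below in the 3 livers with most members each. ATAC-seq summits lie on either side of the start, and H3K9me2 summits mostly 100 to 350 bp into the gene.

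In the second WT fasted liver every cluster held H3K9me2 summits. The first WT fasted liver had 0 at chr17:22197265-22456689 and at chr7:42473386-42692718. Of the 87 members in clusters 48 (55.2%) had a summit in both WT fasted livers, and of the 141 outside 92 (65.2%), while 84 (96.6%) and 136 (96.5%) had one in at least 1. Across the 514003 bp of the chr13 cluster there were 8 and 17 H3K9me2 summits in WT fasted and 1 and 12 in WT refed livers. ATAC-seq summits there numbered 10 and 5 in fasted WT, 5 and 2 in refed WT and 1 and 0 in knockout livers. Members called lower had an H3K9me2 summit in both WT fasted livers in 24 of 37 cases (64.9%), and members called higher in 7 of 7. Of the other genes with the count minimum, 72.4% of the 1805 called lower and 47.4% of the 1552 called higher had one.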

How the data were processed

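Pooled-RNA libraries of refed mouse liver (2 WT, 2 JMJD1C-LKO) and single livers for ATAC-seq (6) and H3K9me2 ChIP-seq (4) were grouped by their titles. Estimated counts for each RefSeq transcript were deposited (HISAT2 and Partek are named in the submitters' processing notes, the counting step is not given in the sources used here), in mm10. The deposited summits carry a −log10 q score from MACS2 2.1.1 run per liver at a q-value of 0.05. ATAC-seq reads were aligned with BWA, and ChIP-seq peaks required 2.5-fold enrichment over the input of the same replicate. A deposited gene list with the authors' own comparison was not used.

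Counts were summed per gene, rounded and tested with edgeR 4.0.16 (R 4.3.3; TMM, filterByExpr, quasi-likelihood test, JMJD1C-LKO against WT, Benjamini-Hochberg over 14151 genes, threshold 0.05), after tests on simulated data. P-values measure only the spread between 2 pooled libraries per group. Alternatives were other size factors, no filter, DESeq2 1.42.0, a replicate block, each library left out and other member rules. Finger, linker and KRAB A patterns were read from translated RefSeq coding sequences, with 1 mismatch allowed in KRAB A. Summits were joined to curated RefSeq starts within 1000 bp. Level was scaled by transcript length to TPM. Reads of near-identical genes may have been split by the authors' counting. Genes named were those with the smallest p (up to 10 per direction), the 5 highest levels, the members of lists, those with summits in most livers (up to 8 per assay), those at the count minimum and the extremes of each cluster. Zfp169 and Zfp40 were named after their values were seen. The members and lists were chosen with earlier results of these data known. Depth was 51265128 to 54400509 counts per library, and the depth of ATAC-seq and ChIP-seq is unknown.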

Additional observations from a re-analysis of the deposited data

How the results depend on the processing

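With 37 members lower and 7 higher as the base, RLE size factors, no filter, DESeq2 and the replicate block kept both counts within 1.5-fold. DESeq2 gave the fewest, with 31 lower (13.6%) and 5 higher (2.19%), against 10.1% and 11.05% of all genes. Its higher calls left out Zfp655 and Zfp970. All 44 called members kept their direction under these settings, but their groups do not overlap, so this adds no support. Leaving out 1 RNA-seq library gave 4 to 50 members lower and 0 to 14 higher, with medians from -0.18 to -0.14, while calls over all genes ranged from 2.81% to 17.9% lower and 4.55% to 17.9% higher. Members with 1000 or more WT counts gave 19 lower and 7 higher among 86 genes, and all genes with that count 20.9% lower and 12.7% higher. The replicate block (42 lower, 10 higher, median -0.17) pairs libraries that share only a number, since the deviations of same-numbered libraries correlated at -0.00461. Single members not called in the main test changed sign when 1 library was left out, with log2 ranges of -0.0528 to 0.0377 for Zfp217, -0.19 to 0.13 for Zfp346, -0.0616 to 0.0300 for Zfp35, -0.28 to 0.46 for Zfp369, -0.0422 to 0.0291 for Zfp451, -0.51 to 0.0441 for Zfp563, -0.0631 to 0.0536 for Zfp568, -0.0594 to 0.00092 for Zfp592, -0.0810 to 0.0314 for Zfp626, -0.39 to 0.0824 for Zfp653, -0.0741 to 0.56 for Zfp688, -0.0610 to 0.0754 for Zfp87, -0.0382 to 0.13 for Zfp870 and -0.0981 to 0.42 for Zfp983. Gaps of 100000 and 500000 bp put 64 and 112 members in clusters in place of 87. Members with an ATAC-seq summit in both livers were 11 in fasted WT (4.82%, other genes 4.63%) and 1 in the refed knockout (0.439%, other genes 0.199%) at a score of 5 or more. With the same number of strongest summits per liver they were 4 in each WT group (1.75%, other genes 1.82% in fasted and 2.28% in refed WT) and 1 in the refed knockout (other genes 0.397%). Single livers gave 24 to 68 in fasted WT, 33 to 54 in refed WT and 6 to 23 in the refed knockout. For H3K9me2, the strongest 1297 summits gave 14 in WT fasted and 0 in WT refed, and a window of 500 bp or a score of 5 gave 0 in WT refed. Single livers gave 140 to 220 in WT fasted and 2 to 175 in WT refed. Without the 17 members that share sequence, 1 remained in refed knockout ATAC-seq and 1 in WT refed H3K9me2. In WT ATAC-seq, 14 then remained in fasted (6.64%, other genes 8.41%) and 17 in refed livers (8.06%, other genes 9.41%). The cause of these shifts was not tested beyond the shorter lists and fewer libraries that each setting makes.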

Other observations

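The 105 Zfp genes under the count minimum had fewer summits at their starts than the members. In WT fasted livers, 8 (7.62%) and 61 (58.1%) of them had an H3K9me2 summit within 1000 bp of a start, and in the second WT refed liver 29 (27.6%), against 140 (61.4%), 220 (96.5%) and 175 (76.8%) of the 228 members. Other genes under the minimum had a summit in both WT fasted livers in 8.89% of 4644 cases and in at least 1 of them in 22.6%, while the Zfp genes under the minimum had 7.62% and 58.1%. ATAC-seq summits in at least 1 WT fasted liver stood at 16 (15.2%) of these 105 Zfp genes, against 8.25% of the other genes under the minimum. Of the 92 tested, 4 (Zfp455, Zfp712, Zfp781 and Zfp820) were called lower by edgeR (4.35%) and Zfp811 higher (1.09%), where all genes tested had 13.4% and 14.6%, with a median log2 fold change of -0.19.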
